A study of Mus musculus with 8 samples.

Results

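AMP-activated protein kinase (AMPK), the kinase LKB1 that switches it on and the acetyl-CoA carboxylases that it switches off were followed by RNA sequencing in WT and TAZG197V mouse hearts. The set was chosen by name and holds 10 of the 55471 genes counted. It comprised both catalytic alpha subunits (Prkaa1, Prkaa2), both scaffolding beta subunits (Prkab1, Prkab2), all 3 nucleotide-sensing gamma subunits (Prkag1, Prkag2, Prkag3), LKB1 (Stk11), and both carboxylases (Acaca, Acacb). All 10 passed the filter on low counts and were among the 15084 genes tested. TAZG197V mice carry a patient-derived glycine-to-valine substitution in Tafazzin, the cardiolipin-remodelling enzyme whose loss causes Barth syndrome. It was introduced by CRISPR/Cas9 into C57BL/6N zygotes, and carriers were then crossed to C57BL6/J. Per the study, the mutants were hemizygous males, and mutants and WT controls were 14 weeks old. The study names no treatment for the sequenced hearts. A small piece of heart was used for each of 4 libraries per genotype, and the labels name the tissue, the genotype and a replicate number. The alteration is present in the whole animal, so it is not restricted to heart muscle cells.

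AMPK is a complex of an alpha, a beta and a gamma subunit that responds to a fall in cellular energy. AMP and ADP bind the gamma subunit, LKB1 phosphorylates the alpha subunit, and the beta subunit holds the complex together and binds glycogen. In heart muscle the active kinase phosphorylates acetyl-CoA carboxylase, which lowers malonyl-CoA, relieves the block on carnitine palmitoyltransferase 1 and lets fatty acids enter mitochondria. The transcripts measured here report neither the amount of these proteins nor their phosphorylation.

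Total counts ranged from 23055689 to 36301031 per library, and mitochondrially encoded genes took 21.6% to 24.6% of them. Levels are given as CPM, which are counts relative to library size scaled by edgeR's TMM factors. All 6 heart muscle markers examined were detected, and their summed level was 54370 to 60980 CPM in WT and 45490 to 49680 CPM in TAZG197V hearts. WT 4 and TAZG197V 4 stood apart from the other libraries. Summed brain markers were 203.3 CPM in WT 4 and 339.2 CPM in TAZG197V 4, against 46.92 to 93.19 CPM in the other 6 libraries. Summed red cell markers reached 55070 CPM in WT 4 and at most 1065 CPM elsewhere, and summed adipocyte markers were 43.97 CPM in WT 2 and at most 6.638 CPM elsewhere. The edited gene Taz was lower in TAZG197V hearts by a log2 fold change of -0.37 (SE 0.055, edgeR adjusted p = 0.00126). Taz averaged 60.9 ± 2.36 CPM over the WT libraries and 47.3 ± 2.60 CPM over the mutant ones (SD, n = 4 per genotype).

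A gene was called when its p adjusted over all genes tested was under 0.05, its fitted log2 fold change exceeded 0.202 in size and its mean scaled count reached 50. Among the 10 members, 1 was called higher (Acaca) and 2 lower (Prkab1 and Acacb), while 7 were not called. Without WT 4 there were 2 called higher and 4 lower, and without TAZG197V 4 there were 1 and 4. Over all genes tested, 33.4% were called, 18.5% higher and 15% lower. The 3 of 10 members called are close to that share, so the count itself is not a result about the set, and the values of the single genes are described instead. The median log2 fold change was 0.05 over the members and -0.01 over all genes tested. The WT and TAZG197V libraries did not overlap for 3 members (Prkab1, Prkag2 and Acaca), against 33.2% of all genes tested.

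**Figure D1:**
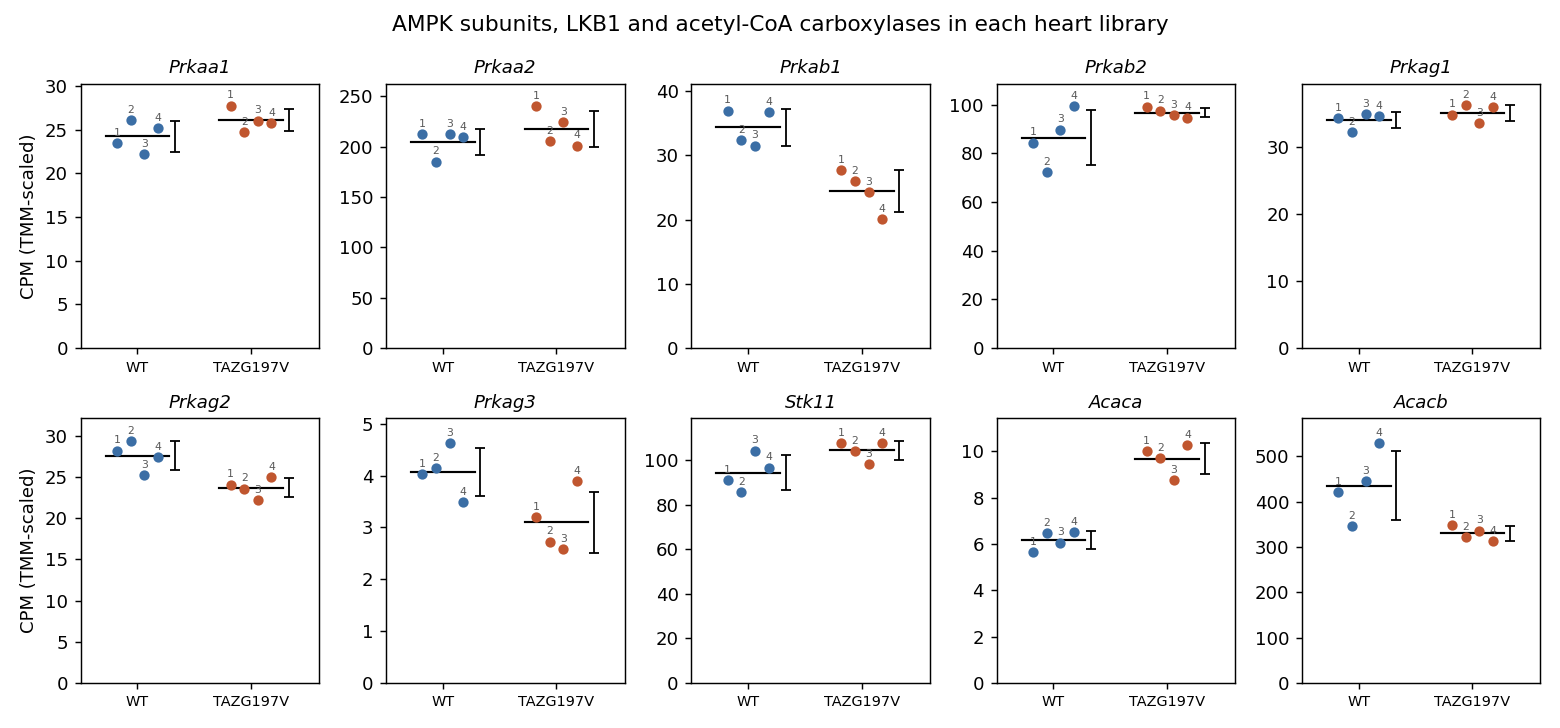
TMM-scaled CPM (vertical axis, from 0) of the 10 members in the 4 WT and 4 TAZG197V libraries, with points numbered by replicate, a line at the mean and a bar for ± 1 SD. Prkab1 and Prkag2 lay lower and Acaca higher in every TAZG197V library than in any WT library, while Acacb was lower in TAZG197V with WT 2 at 344.9 CPM inside the TAZG197V range.

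Levels per kb of exon placed the members over a wide range. In WT hearts Acacb came first with 45.2 ± 7.88 CPM per kb, followed by Prkaa2 with 25.7 ± 1.65, Stk11 with 20.6 ± 1.74 and Prkab2 with 17.0 ± 2.2 (SD, n = 4). Prkag1 (15.7 CPM per kb), Prkab1 (11.2), Prkaa1 (5.21), Prkag2 (4.25) and Prkag3 (1.105) followed, and Acaca was last with 0.361. Neighbours in this order did not overlap between their 4 WT libraries, except Stk11 with Prkab2 and Prkab2 with Prkag1. TAZG197V hearts had the same order, and there no neighbours overlapped. The annotated exons of Acaca span 17.07 kb over all its transcripts together, so its level per kb is a lower estimate for any shorter transcript. Prkag1 shares 43.7% of its exon bases with a gene on the opposite strand, and its place in the order carries that uncertainty because the strand setting of the counting was not given in the sources used here.

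**Figure D2:**
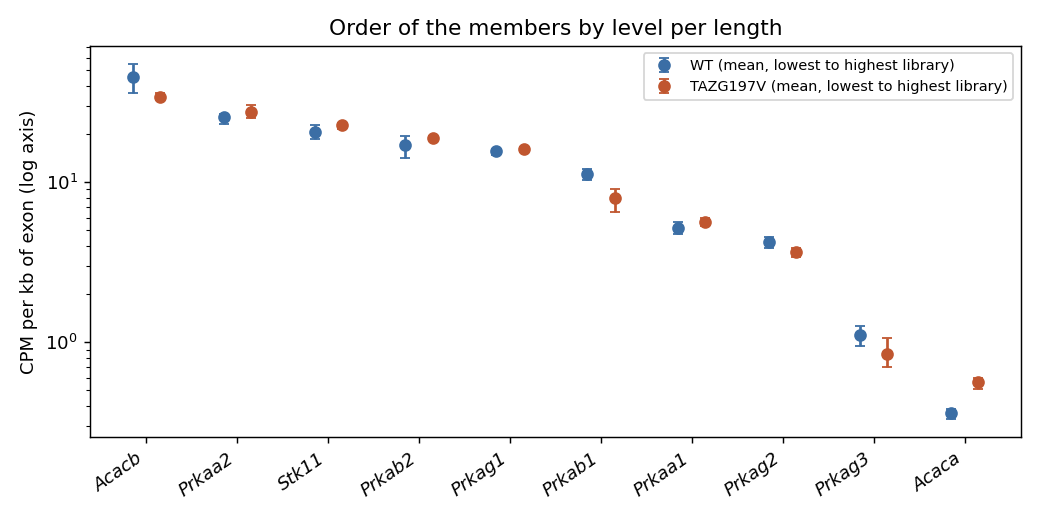
Mean level per kb of exon (vertical axis, CPM per kb, log axis) of each member in WT and TAZG197V hearts, with bars from the lowest to the highest of 4 libraries. The genes are in WT order from Acacb at 45.2 to Acaca at 0.361 CPM per kb, and the order was the same in TAZG197V hearts.

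The catalytic subunits were not called. Prkaa2, the alpha2 subunit that prevails in heart and skeletal muscle, was counted at 212.2, 185.2, 212.5 and 209.6 CPM in WT 1 to 4 and at 240.5, 206.0, 224.3 and 201.2 CPM in TAZG197V 1 to 4. The genotypes overlapped, and the log2 fold change was 0.07 with a 95% interval from -0.09 to 0.22 (SE 0.067, adjusted p = 0.459). Prkaa1, the more broadly expressed alpha1 subunit, was at 23.44, 26.11, 22.21 and 25.18 CPM in WT and at 27.76, 24.77, 26.04 and 25.74 CPM in TAZG197V hearts. It overlapped too, with a log2 fold change of 0.12 and an interval from -0.04 to 0.29 (SE 0.071, adjusted p = 0.209). With 1 library left out, Prkaa2 ran from 0.01 (without TAZG197V 1) to 0.13 (without TAZG197V 4) and Prkaa1 from 0.07 (without WT 3) to 0.16, and neither was called. The intervals leave room for a modest rise of either gene and end above a fall of 0.09 on the log2 scale. Prkaa1 made up 16.9% ± 1.87 of the summed alpha level per kb in WT and 17.0% ± 0.674 in TAZG197V (SD, n = 4). The log2 ratio of Prkaa1 to Prkaa2 differed by 0.02 between genotypes (exact permutation test, two-sided, p = 0.83, adjusted over 4 ratios 0.83).

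The beta subunits differed in how they stood between genotypes. Prkab1 (ENSMUSG00000029513, chromosome 5, 116013586 to 116024508, GRCm38) encodes beta1, and its level was 36.97, 32.32, 31.53 and 36.74 CPM in WT 1 to 4 and 27.65, 26.02, 24.27 and 20.06 CPM in TAZG197V 1 to 4. Every TAZG197V library lay below every WT library, and TAZG197V 4 was the lowest. Prkab1 fell by 0.52 on the log2 scale, an interval from -0.74 to -0.29 (SE 0.097, adjusted p = 0.00405), which took the mean from 34.4 ± 2.87 to 24.5 ± 3.26 CPM. The call held under all 16 alternative fits, with log2 fold changes from -0.60 to -0.37, and the log2 ratio was -0.37 within the lane of libraries 1 and 2 and -0.62 within the lane of libraries 3 and 4. In pieces of tissue such as these, fewer cells of a type and less RNA per cell cannot be told apart. The summed level of 4 endothelial markers was 566.1 to 813.3 CPM in WT and 452.9 to 596.9 CPM in TAZG197V hearts. That of 4 fibroblast markers was 698.8 to 1125 CPM and 463.6 to 630.9 CPM. Of these endothelial and fibroblast markers, 2 of 4 and 3 of 4 were called lower, against 15% of all genes tested. Their part in the fall of Prkab1 was not tested. The sum of 4 macrophage markers was 114.4 to 131.3 CPM in WT and 107.1 to 163.5 CPM in TAZG197V hearts. Of the 4, 0 were called either way by edgeR. An unadjusted p under 0.05 was found for 1 of 4, against 7245 of the 15084 genes tested.

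Prkab2 encodes beta2, the form typical of muscle, and was counted at 84.36, 72.36, 89.75 and 99.20 CPM in WT and at 99.18, 97.53, 95.55 and 94.65 CPM in TAZG197V hearts. The TAZG197V libraries were close together near the top of the WT range, and WT 4 exceeded all of them. The log2 fold change was 0.13 with an interval from 0.01 to 0.24 (SE 0.050, adjusted p = 0.0815), so Prkab2 was not called. It was called without WT 4 (0.23, adjusted p = 0.0150) and without both number 4 libraries (0.26, adjusted p = 0.00988), and it was 0.06 without WT 2 and 0.21 without TAZG197V 4. In every WT library Prkab2 was above Prkab1 per kb of exon, and Prkab1 made up 42.1%, 42.6%, 36.9% and 38.1% of the pair. In TAZG197V libraries that share was 31.7%, 30.7%, 29.7% and 26%, below all WT libraries. The mean share was 39.9% ± 2.87 in WT and 29.5% ± 2.46 in TAZG197V hearts, a log2 ratio lower by -0.67 (exact permutation test, two-sided, p = 0.0286, adjusted over 4 ratios 0.0381). With 4 libraries against 4, this exact permutation test cannot give a smaller p. Without any single TAZG197V library the groups still did not overlap, and the smallest p of that design, 0.0286, came to 0.0571 after adjustment. The summed beta level was 28.2 ± 2.76 CPM per kb in WT and 26.97 ± 1.44 in TAZG197V hearts.

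The promoter windows of the beta subunits are shown because Prkab1 and Prkab2 fill the same place in the complex, and the balance between them differed between genotypes. Each runs from 250 bases before to 50 bases after the RefSeq start on GRCm38.p6, written 5′ to 3′ along the gene. Prkab1 lies on the minus strand (chr5:116024379-116024678) and Prkab2 on the plus strand (chr3:97657962-97658261). Capitals mark matches to the motifs searched on both strands.
Prkab1: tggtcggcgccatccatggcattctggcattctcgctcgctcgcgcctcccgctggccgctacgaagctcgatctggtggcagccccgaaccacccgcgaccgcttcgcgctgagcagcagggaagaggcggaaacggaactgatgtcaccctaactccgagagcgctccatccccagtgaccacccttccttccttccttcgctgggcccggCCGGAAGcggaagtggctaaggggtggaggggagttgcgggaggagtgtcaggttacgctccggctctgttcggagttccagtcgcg
Prkab2: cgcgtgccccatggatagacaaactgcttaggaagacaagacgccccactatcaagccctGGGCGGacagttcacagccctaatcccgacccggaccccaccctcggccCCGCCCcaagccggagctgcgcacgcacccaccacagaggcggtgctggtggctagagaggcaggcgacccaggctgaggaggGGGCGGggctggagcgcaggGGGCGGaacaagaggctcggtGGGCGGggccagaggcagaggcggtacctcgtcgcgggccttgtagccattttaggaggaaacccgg
In Prkab1 the capitals are an ETS site (CCGGAAG), found in 2 of the 12 member windows (Prkab1 and Prkag1) and in 8.86% of 32851 mouse promoter windows of this length. In Prkab2 they are 5 GC boxes (GGGCGG or its reverse complement), a motif found in 7 of 12 member windows and 35.7% of all windows. Prkab1 had no GC box and Prkab2 no ETS site in these letters. The other motifs searched were found in 0 of 12 member windows. They were the ATF4 composite element TGATGNAAN (3.95% of all windows), the cAMP response element TGACGTCA (1.79%), the ERR site TCAAGGTCA (0.423%), the E-box CACGTG (7.15%) and the sterol response element TCACNCCAC (1.24%). For Acaca and Acacb the RefSeq start lies 65766 and 18983 bases inside the annotated gene, so other starts of these genes were not searched.

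Among the gamma subunits, none was called. Prkag1, the widely expressed gamma1 subunit, was at 34.40, 32.34, 34.99 and 34.65 CPM in WT and at 34.91, 36.27, 33.66 and 36.01 CPM in TAZG197V hearts. It overlapped between genotypes, with a log2 fold change of 0.04 and an interval from -0.09 to 0.16 (SE 0.056, adjusted p = 0.640). With 1 library left out it was 0.01 (without TAZG197V 2) to 0.05 (without WT 3), and it was not called. Prkag2 encodes gamma2, the subunit whose inherited variants cause a human cardiomyopathy with glycogen storage. Prkag2 was at 28.21, 29.38, 25.20 and 27.46 CPM in WT and at 24.09, 23.59, 22.17 and 25.01 CPM in TAZG197V hearts, and the genotypes did not overlap by a narrow gap between WT 3 and TAZG197V 4. Its log2 fold change of -0.20 (SE 0.061, adjusted p = 0.0346, interval from -0.34 to -0.06) passed the p threshold and missed the fold threshold by a small margin. Prkag2 was called lower in 9 of 16 alternative fits, among them those with 0 surrogate variables (-0.22), with lane (-0.22) and with the replicate block (-0.22). Adjusted p ran from 0.0803 to 0.125 without WT 1, WT 2, TAZG197V 1, TAZG197V 2 or TAZG197V 3, where the log2 fold change stayed at -0.16 or beyond. It was 0.0895 by DESeq2 and 0.120 with no low-count filter. Antisense transcripts cover 14.5% of the exon bases of Prkag2, and without a stated strand setting their reads cannot be told apart from its own.

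Prkag3, a gamma subunit known from fast skeletal muscle, had the smallest counts of the kinase genes. It was at 4.025, 4.150, 4.621 and 3.482 CPM in WT and at 3.197, 2.726, 2.582 and 3.887 CPM in TAZG197V hearts. The 2 number 4 libraries crossed the order, with WT 4 the lowest of WT and TAZG197V 4 the highest of TAZG197V. The log2 fold change was -0.39 with an interval from -0.78 to -0.01 (SE 0.168, adjusted p = 0.0996). It was called lower without WT 4 (-0.50, adjusted p = 0.0265), without TAZG197V 4 (-0.55, adjusted p = 0.0193) and without both (-0.59, adjusted p = 0.0157). Summed fast skeletal muscle markers were 2.034 to 3.044 CPM in WT and 1.272 to 1.538 CPM in TAZG197V libraries, without overlap, with 0 of the 2 tested markers called. One of them, Tnni2, had a log2 fold change of -2.16 (SE 0.314, adjusted p = 0.00119, no overlap) and missed the call on its mean scaled count of 20.9, below the minimum of 50. Mylpf had -0.29 (adjusted p = 0.447). None of the 7 markers was at 0 in all libraries, but only these 2 passed the filter on low counts. Mean scaled counts of Myh1, Myh2 and Myh4 were 1.513, 0.501 and 0.377. The part of the 7 markers in the level of Prkag3 was not tested. The share of Prkag1 in the Prkag1 and Prkag2 pair was 78.4%, 76.6%, 80.5% and 79.0% in WT and 81.2%, 82.1%, 81.9% and 81.1% in TAZG197V libraries. The groups did not overlap, and the log2 ratio was higher by 0.26 in TAZG197V (exact permutation test, two-sided, p = 0.0286, adjusted 0.0381). Without any single TAZG197V library the adjusted p was 0.0762 in this exact permutation test. The strand uncertainty of both genes applies to this ratio. The gamma subunits summed to 21.0 ± 0.342 CPM per kb in WT and 20.7 ± 0.805 in TAZG197V hearts.

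LKB1, the master kinase upstream of AMPK, was not called. Stk11 was at 91.16, 85.74, 104.4 and 96.70 CPM in WT and at 107.6, 104.0, 98.39 and 107.9 CPM in TAZG197V hearts. TAZG197V libraries lay mostly above WT, and WT 3 lay among them. The log2 fold change was 0.12 with an interval from -0.02 to 0.27 (SE 0.064, adjusted p = 0.159). Without WT 3 it was 0.19 with an adjusted p of 0.0467, which was still short of the fold threshold. Exons of a gene on the opposite strand cover 5.07% of the exon bases of Stk11.

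Both acetyl-CoA carboxylases were called, in opposite directions. Acacb (ENSMUSG00000042010, chromosome 5, 114146535 to 114250761, GRCm38) encodes ACC2, the carboxylase at the mitochondrial outer membrane whose malonyl-CoA restrains fatty acid entry. Acacb was counted at 421.1, 344.9, 444.2 and 529.3 CPM in WT 1 to 4 and at 348.8, 320.9, 335.6 and 312.5 CPM in TAZG197V 1 to 4. The WT libraries were widely spread and the TAZG197V libraries close together, and WT 2 lay below TAZG197V 1. Acacb fell by 0.45 on the log2 scale, with an interval from -0.60 to -0.29 (SE 0.066, adjusted p = 0.00129), and its mean went from 434.9 ± 75.9 to 329.5 ± 16.1 CPM. The call held in all 16 alternative fits, but the adjusted p depended on the surrogate variables. By edgeR it was 0.0312 and 0.0295 with 0 and 1 of them, 0.0332 with lane and 0.0422 with the replicate block. The second surrogate variable was -0.851 in WT 2 and -0.154 to 0.358 in the other libraries. The size of the fall depended on the number 4 libraries. It was -0.30 without WT 4 (adjusted p = 0.00658), -0.32 without TAZG197V 4 (adjusted p = 0.0223) and -0.25 without both (adjusted p = 0.0176). The log2 ratio was -0.19 in the lane of libraries 1 and 2 and -0.59 in the lane of libraries 3 and 4. Of the 6 heart muscle markers, 3 were called lower, against 15% of all genes tested, and the median log2 fold change of the 6 was -0.30. The part of this in the fall of Acacb was not tested.

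Acaca (ENSMUSG00000020532, chromosome 11, 84129672 to 84401651, GRCm38) encodes ACC1, the cytosolic carboxylase of fatty acid synthesis, and was the least abundant member per kb. Its level was 5.649, 6.458, 6.058 and 6.518 CPM in WT 1 to 4 and 9.991, 9.688, 8.745 and 10.27 CPM in TAZG197V 1 to 4. All TAZG197V libraries lay above all WT libraries. Acaca was higher by a log2 fold change of 0.66, with an interval from 0.44 to 0.87 (SE 0.095, adjusted p = 0.00116), and its mean went from 6.17 ± 0.403 to 9.67 ± 0.663 CPM. Across all 16 alternative fits the log2 fold change was 0.62 to 0.70 and the call held, and the log2 ratio was 0.70 and 0.60 within the lanes of libraries 1 and 2 and of libraries 3 and 4. In WT 2, where adipocyte markers were highest, Acaca was 6.458 CPM and within the range of the other WT libraries. The part of adipocytes in the level of Acaca was not tested. Of the 50-base windows of the Acaca exons, 30.4% also occur in other genes, and how reads from them were counted was not given in the sources used here.

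Within the carboxylase pair, Acaca made up 0.751%, 1.05%, 0.764% and 0.690% of the level per kb in WT and 1.59%, 1.67%, 1.45% and 1.82% in TAZG197V libraries. Acacb was the main transcript of the pair in every library. The log2 ratio of Acaca to Acacb was higher by 1.03 in TAZG197V hearts, without overlap (exact permutation test, two-sided, p = 0.0286, adjusted 0.0381). Without any single TAZG197V library the adjusted p was 0.0571 in this exact permutation test, from the same smallest p of 0.0286. The carboxylases summed to 45.5 ± 7.88 CPM per kb in WT and 34.8 ± 1.66 in TAZG197V hearts, a difference of -23.6%. Acacb made up nearly all of this sum, which overlapped between genotypes (36.18 to 55.33 in WT and 33.05 to 36.8 in TAZG197V libraries). The alpha subunits summed to 30.9 ± 1.38 and 32.96 ± 2.49.

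**Figure D3:**
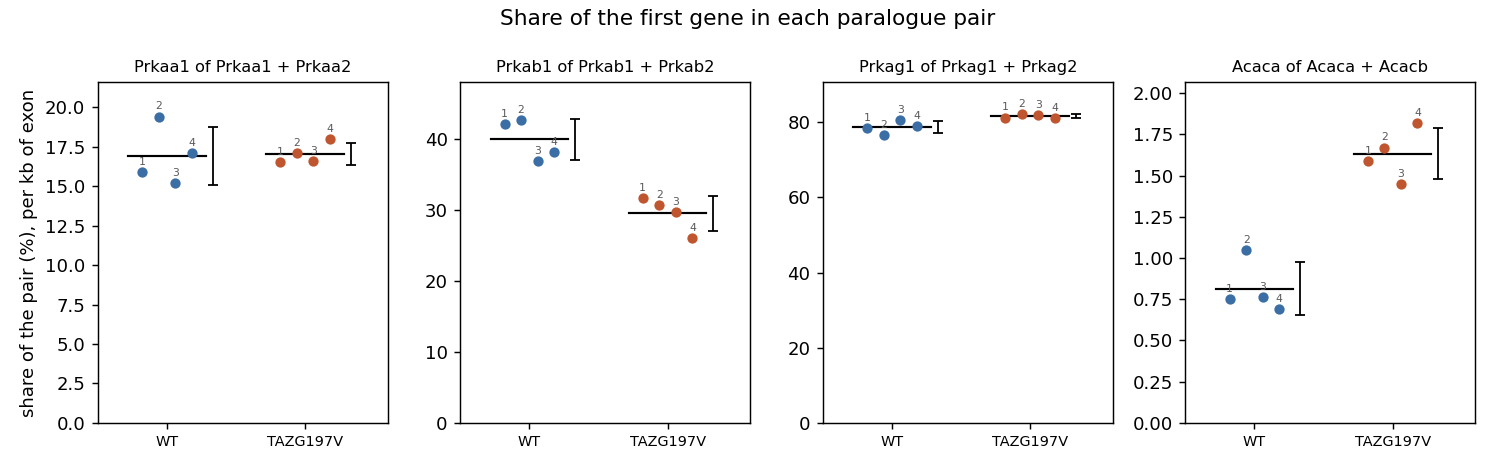
Share of the first gene in 4 pairs of related genes (vertical axis, percent of the summed level per kb of exon, from 0) in each WT and TAZG197V library, with the mean line and a bar for ± 1 SD. The genotypes overlapped for Prkaa1 (16.9% and 17.0%) and did not for Prkab1 (39.9% and 29.5%), Prkag1 (78.6% and 81.6%) and Acaca (0.812% and 1.63%).

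**Figure D4:**
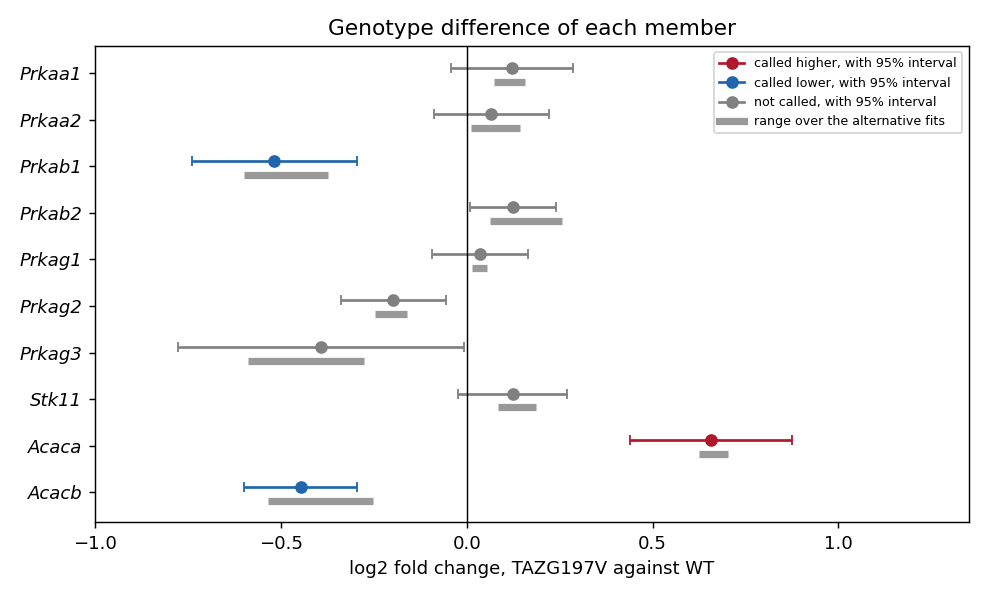
Log2 fold change of TAZG197V against WT (horizontal axis) for each member, with its 95% interval in red where called higher, blue where called lower and grey where not called, and below it a light grey bar for the range over 16 alternative fits. The intervals and ranges of Prkab1, Acaca and Acacb lie on 1 side of 0, and so do those of Prkab2, Prkag2 and Prkag3, which were not called and whose intervals end nearer to 0.

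The genes whose log2 CPM followed each called member most closely over the 8 libraries were taken from 12356 genes with a symbol. For Prkab1 they were Ppfibp2 (Pearson r = 0.982), BC037032 (0.976) and Sec31b (0.976). For Acaca they were Fam8a1 (0.998), Atp6v0d1 (0.993) and Rusc2 (0.992). For Acacb they were Dicer1 (0.983), Impa2 (0.979) and Iqsec1 (0.979). These coefficients describe 8 libraries that share 2 genotypes, and the genotype difference enters each of them.

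To place the members in their pathway, 52 other genes were grouped by role, of which 51 were tested. Of these, 7 were called higher and 10 lower, 17 of 51 against 33.4% of all genes, with a median log2 fold change of -0.02. The counts depended on single libraries: 2 were called higher without WT 3, TAZG197V 1 or TAZG197V 2, and 6, 6, 5 and 3 were called lower without WT 1, WT 3, TAZG197V 1 and TAZG197V 2. Among the 7 LKB1 partners and other upstream kinases, 1 was called higher and 0 lower by edgeR, against 18.5% and 15% of all genes tested. An unadjusted p under 0.05 was found for 3 of them, against 7245 of the 15084 genes tested. These counts are not read as a result about the list. The gene called was Strada, the pseudokinase that holds LKB1 in its active form, at 9.59 ± 0.967 CPM in WT and 12.7 ± 1.38 CPM in TAZG197V hearts (log2 fold change 0.40, SE 0.118, adjusted p = 0.0276, no overlap). Adjusted p for Strada was 0.0551 to 0.0907 without WT 1, WT 3, TAZG197V 1 or TAZG197V 2.

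Among 5 AMPK phosphatases and binding regulators, 3 were called higher and 0 lower, against 18.5% and 15% of all genes tested, in a list too short to read a trend from. Ppm1e encodes a phosphatase that removes the activating phosphate from AMPK. It was at 15.83, 19.15, 16.08 and 20.67 CPM in WT and at 36.11, 31.41, 26.36 and 52.66 CPM in TAZG197V libraries, so the genotypes did not overlap and TAZG197V 4 was far above the rest. Its log2 fold change was 1.02 (SE 0.091, adjusted p = 0.000115), was called under all 16 alternatives and was 0.87 without both number 4 libraries. Ppm1e is abundant in brain, and brain markers were highest in both number 4 libraries. Their part in the level of Ppm1e in TAZG197V 4 was not tested. Flcn, the folliculin gene, and Fnip2, which encodes a folliculin partner that binds AMPK, had log2 fold changes of 0.34 (SE 0.104, adjusted p = 0.0321) and 0.65 (SE 0.176, adjusted p = 0.0207). Both overlapped between genotypes. Adjusted p was 0.0854 to 0.0990 for Flcn without WT 3, TAZG197V 1 or TAZG197V 2, and 0.0520 to 0.101 for Fnip2 without any of these or without WT 4, where Fnip2 was 0.38. With 0 and 1 surrogate variable, adjusted p was 0.182 and 0.0998 for Fnip2 and 0.0559 and 0.0557 for Flcn.

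Of the 12 AMPK-related kinases that LKB1 also activates, 11 were tested, and 1 was called higher and 2 lower, against 18.5% and 15% of all genes tested, which is not read as a result about the list. Sik1, a salt-inducible kinase, was at 26.2 ± 5.604 CPM in WT and 40.4 ± 10.3 CPM in TAZG197V hearts (log2 fold change 0.66, SE 0.206, adjusted p = 0.0352). Its relative Sik2 was at 14.0 ± 1.69 and 10.9 ± 0.956 CPM (-0.38, SE 0.106, adjusted p = 0.0234), and neither gene overlapped between genotypes. Nuak1 was at 45.1 ± 12.0 and 29.4 ± 5.91 CPM with overlap (-0.51, SE 0.142, adjusted p = 0.0225), and its log2 fold change was -0.80 without TAZG197V 4. These calls were not stable, and 15% of the exon bases of Sik2 lie in a gene on the opposite strand. Adjusted p was 0.0505 to 0.0851 for Sik1 without WT 1, WT 3, TAZG197V 1 or TAZG197V 2, and 0.0524 to 0.0794 for Sik2 without WT 4, TAZG197V 1 or TAZG197V 2. For Nuak1 it was 0.0713 to 0.130 without WT 1, WT 2, TAZG197V 1, TAZG197V 2 or TAZG197V 3, 0.0617 with lane and 0.0824 with the replicate block. For Sik2 it was 0.0581 with the replicate block and 0.0802 without both number 4 libraries.

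The 12 genes that make, remove or respond to malonyl-CoA included 0 called higher and 3 lower by edgeR, against 18.5% and 15% of all genes tested. An unadjusted p under 0.05 was found for 4 of them, against 7245 of the 15084 genes tested. These counts are too small to be read as a result about the list. Cpt2, the inner-membrane carnitine palmitoyltransferase, was at 275.8, 245.7, 271.8 and 266.3 CPM in WT and at 192.4, 187.7, 198.8 and 196.9 CPM in TAZG197V libraries. The genotypes were far apart, with a log2 fold change of -0.46 (SE 0.056, adjusted p = 0.000500) that was called under all 16 alternatives. Summed heart muscle markers were also lower in TAZG197V hearts, and their part in the fall of Cpt2 was not tested. The malonyl-CoA-sensitive outer-membrane enzymes were not called. Cpt1b, the muscle form, had a log2 fold change of -0.02 (SE 0.087, adjusted p = 0.845), and Cpt1a, the liver form, -0.05 (SE 0.134, adjusted p = 0.792). The sign turned for Cpt1a without WT 4 (0.13) or TAZG197V 4 (0.11), and for Cpt1b without WT 1 (0.05), WT 2 (0.01) or TAZG197V 2 (0.02). A read-through gene annotated on the same strand covers 81.4% of the exon bases of Cpt1b, so its counts are uncertain. Mlycd, the malonyl-CoA decarboxylase that works against the carboxylases, was at 125.4 ± 14.2 and 110.7 ± 5.34 CPM with overlap (-0.21, SE 0.069, adjusted p = 0.0437). Its adjusted p was 0.0515 to 0.136 without WT 3, WT 4 or any single TAZG197V library, and its log2 fold change was -0.14 without WT 3. Mlycd passed in 4 of 16 alternatives, and adjusted p was 0.139 and 0.134 with 0 and 1 surrogate variable, 0.145 with lane, 0.181 with the replicate block, 0.0900 with no low-count filter and 0.160 without both number 4 libraries. Thrsp, a lipogenic regulator, was at 23.3 ± 5.69 and 16.1 ± 2.40 CPM without overlap (-0.57, SE 0.175, adjusted p = 0.0342). For Thrsp adjusted p was 0.0619 to 0.0986 without WT 1, WT 3, TAZG197V 1 or TAZG197V 2, and its log2 fold change was -0.37 without WT 3.

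Of 16 AMPK substrates and effectors, 2 were called higher and 5 lower, against 18.5% and 15% of all genes tested, and the genotypes did not overlap for 7, against 33.2%. These counts are not read as a result about the list. Slc2a4, the insulin- and contraction-responsive glucose transporter GLUT4, was at 479.0, 383.9, 458.2 and 404.4 CPM in WT and at 311.0, 293.3, 323.8 and 304.3 CPM in TAZG197V libraries. All TAZG197V libraries were below all WT libraries, and the log2 fold change was -0.50 (SE 0.079, adjusted p = 0.00178). The part of the lower heart muscle markers in the fall of Slc2a4 was not tested. Tbc1d1, a Rab regulator of GLUT4 traffic, was lower by a log2 fold change of -0.45 (SE 0.102, adjusted p = 0.00916), with WT 2 highest at 26.90 CPM and the other WT libraries at 16.24 to 16.43 CPM. Foxo3, a transcription factor phosphorylated by AMPK, was at 124.3, 114.5, 102.1 and 127.0 CPM in WT and at 148.9, 157.0, 143.6 and 196.6 CPM in TAZG197V libraries. It was higher without overlap, by a log2 fold change of 0.46 (SE 0.070, adjusted p = 0.00142). Slc2a4, Tbc1d1 and Foxo3 were called under all 16 alternatives.

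The other called effectors depended on single libraries, and Tbc1d4, Eef2k and Hdac5 also on the model. Pfkfb2, the heart form of phosphofructokinase-2, was at 68.1 ± 17.2 CPM in WT and 45.0 ± 8.32 CPM in TAZG197V hearts (-0.54, SE 0.161, adjusted p = 0.0298), with adjusted p of 0.0682 to 0.100 without WT 1, WT 3, TAZG197V 2 or TAZG197V 3. Other genes cover 19.5% of its exon bases. Tbc1d4, another regulator of GLUT4 traffic, had a log2 fold change of -0.23 (SE 0.073, adjusted p = 0.0412), with adjusted p of 0.0787 to 0.102 without any single library other than WT 2 and WT 3, -0.13 without WT 4 and -0.14 without TAZG197V 4. For Tbc1d4 adjusted p was also 0.0656 and 0.0636 with 0 and 1 surrogate variable, 0.0829 with lane, 0.111 with the replicate block, 0.0717 with no low-count filter and 0.154 without both number 4 libraries. Hdac5, a histone deacetylase exported from the nucleus on phosphorylation, had -0.20 (SE 0.064, adjusted p = 0.0369), with adjusted p of 0.0635 to 0.107 without any single library other than WT 2, WT 4 and TAZG197V 4, and of 0.0919 with no low-count filter. Without WT 2 the log2 fold change of Hdac5 was -0.19, short of the fold threshold, so the call was lost there too. Eef2k, the kinase that slows translation elongation, had 0.28 (SE 0.094, adjusted p = 0.0472), with adjusted p of 0.0583 to 0.112 without any single library other than WT 1 and TAZG197V 4, and 0.18 without WT 3. For Eef2k it was also 0.0575 and 0.0607 with 0 and 1 surrogate variable, 0.0668 with the replicate block, 0.0555 with DESeq2 size factors and 0.0620 without both number 4 libraries. Ppargc1a, the coactivator PGC-1alpha, was at 203.9, 178.1, 157.1 and 239.8 CPM in WT and at 192.7, 161.8, 196.2 and 186.3 CPM in TAZG197V libraries. All 4 TAZG197V values lay within the WT range, and the log2 fold change was -0.09 (SE 0.115, adjusted p = 0.546), or 0.04 without WT 4.

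**Figure D5:**
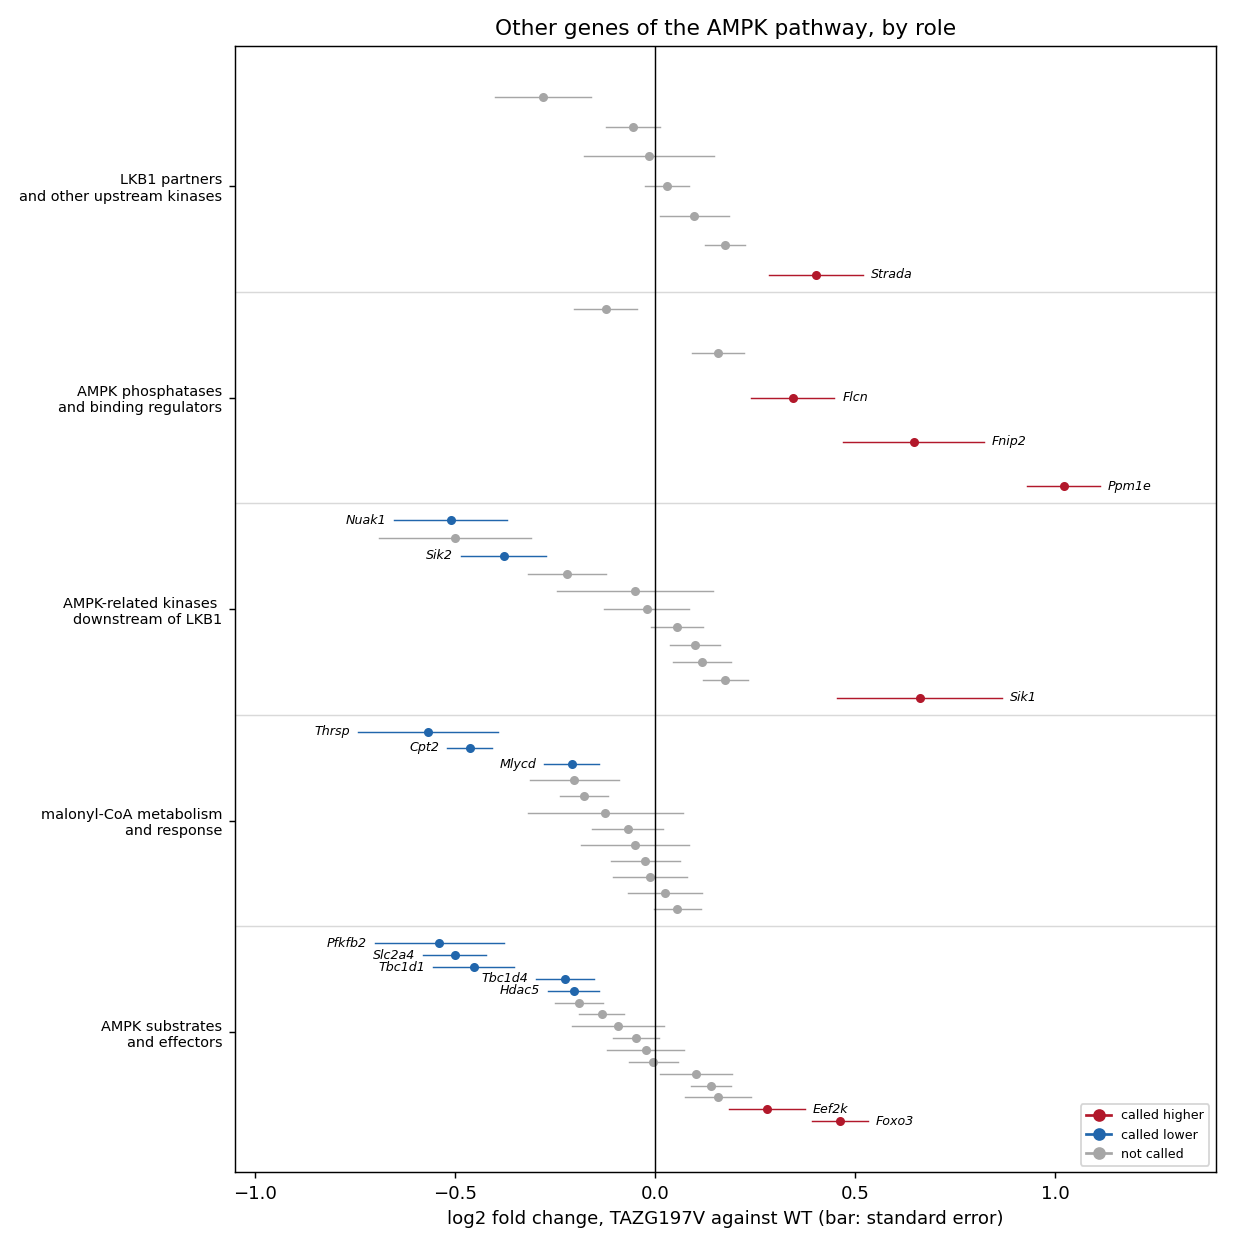
Log2 fold change of TAZG197V against WT (horizontal axis) with its standard error for the 51 tested pathway genes in 5 role groups, red where called higher, blue where called lower and grey where not called. The log2 fold changes run from -0.57 (Thrsp) to 1.02 (Ppm1e), with 7 genes called higher and 10 lower over all groups.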

How the data were processed

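RNA was sequenced from pieces of heart of 4 WT and 4 TAZG197V mice. According to the study's methods and its processing notes, the authors split reads by sample with bcl2fastq 2.20.0, aligned them to mm10 with STAR 2.7.3a and counted reads over exons with featureCounts (Subread 2.0.0). Each deposited file holds raw counts for Ensembl genes as whole numbers, without normalisation. The strand setting, the annotation release and the treatment of reads with several alignments were not given in the sources used here. Symbols, positions and exon lengths came from GENCODE M21 on GRCm38, and 92 spike-in rows, which summed to 0, were left out.

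Counts were fitted in R 4.3.3 with edgeR 4.0.16 (TMM, filterByExpr, quasi-likelihood F-test, two-sided) on genotype and 2 surrogate variables, which are estimates of shared unwanted variation from svaseq (sva 3.50.0, seed 1), as the study's methods describe for DESeq2. P-values were adjusted by Benjamini-Hochberg over 15084 genes. Intervals of log2 fold changes are 95% intervals from the same fit. Ratios of paralogues were tested by exact permutation over libraries. The scripts were tested on simulated data. The members, gene lists, marker lists and alternatives were chosen with earlier results of these data known. The text names all 10 members, the edited gene, up to 4 called genes per direction in each role list, Cpt1a, Cpt1b, Cpt2, Mlycd and Ppargc1a, and for each called member the 3 genes most alike over libraries. Hdac5, beyond the 4 lower calls of its list that this rule takes, was named after its values were seen. Promoter windows came from RefSeq (GRCm38.p6), which held 12 windows for all 10 members.

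The labels name replicates 1 to 4 in each genotype but no shared litter or day. Deviations of same-numbered libraries correlated at 0.323, 0.0666, 0.280 and 0.418, so the numbers were not taken as pairs. The lane was read from the deposited names, with libraries 1 and 2 in lane 7 and libraries 3 and 4 in lane 8. Libraries of 1 genotype differed by a chi-square of at least 11.3 per gene, so none was a repeat of another. The labels do not say that libraries came from separate litters, and p-values measure the spread between these libraries. Mean scaled counts of the members ran from 104.9 (Prkag3) to 11170 (Acacb), so counting error bears most on Prkag3. Alternatives were DESeq2 1.42.0, 0 or 1 surrogate variable, lane or a replicate block in place of surrogate variables, DESeq2 size factors, no low-count filter, a fold threshold of 1.5, and omission of each library and of both number 4 libraries.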

Additional observations from a re-analysis of the deposited data

Results flagged for a closer look

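In 44 groups of 4 libraries checked, 7 held 1 library whose gap to the nearest other library exceeded Dixon's 95% limit as a share of the group's range, where chance gives about 1 in 20 groups, or 2.2. Only 1 of them concerns a member: Prkaa2 was lowest in WT 2, with a gap of 0.898 of the WT range (log2 CPM of 7.53, against 7.71 to 7.73 in the other WT libraries). Without WT 2 its log2 fold change was 0.03, and it was 0.01 without TAZG197V 1 and 0.13 without TAZG197V 4. It was not called in any of these.

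The others concern markers of other cell types. Adipocyte markers were highest in WT 2 (43.97 CPM, gap 0.864) and in TAZG197V 4 (6.638 CPM, gap 0.956). Brain markers were highest in WT 4 (203.3 CPM, gap 0.953) and in TAZG197V 4 (339.2 CPM, gap 0.949). Red cell markers were highest in WT 4 (55070 CPM, gap 0.987), and fibroblast markers in WT 2 (1125 CPM, gap 0.897). Without WT 2 the log2 fold changes of Prkab1, Acaca and Acacb were -0.56, 0.67 and -0.54, and all 3 were called.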

How the results depend on the processing

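Of the members, Prkab1, Acaca and Acacb were called under all 16 alternative fits at the main fold threshold, and no member changed sign under any of them. At a fold threshold of 1.5, 0 members were called lower (main count 2), as were 0 pathway genes (main 10), 3 pathway genes were called higher (main 7), and 995 and 836 of all genes were called higher and lower. Without both number 4 libraries, 2 members were called higher (main 1) and 4 lower. With 0 or 1 surrogate variable, 4 pathway genes were called higher. With 1 library left out, members called ranged from 1 to 2 higher and 2 to 4 lower, pathway genes from 2 to 8 higher and 3 to 12 lower, and all genes from 2121 to 2891 higher and 1545 to 2410 lower. Under the replicate block, which was not taken as a pairing of the libraries, 6 pathway genes were called lower, and the calls of Prkab1, Acaca and Acacb remained. Not every library correlated best with its own number. Outside the fold threshold, the alternatives called 3666 to 5301 genes, and 71.9% to 97.8% of the 5043 called genes were among them.

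Without both number 4 libraries the differences in log2 ratio were -0.62 for Prkab1 to Prkab2, 0.29 for Prkag1 to Prkag2 and 0.91 for Acaca to Acacb, with adjusted p = 0.133 in an exact permutation test of 3 libraries against 3, a design too small to reach the threshold. With 1 library left out they ran from -0.73 to -0.59, from 0.21 to 0.32 and from 0.96 to 1.16. Without any single TAZG197V library, adjusted p in the exact permutation test was 0.0571 for the Prkab and Acac ratios, whose unadjusted p stayed at 0.0286, the smallest that this design allows, so these losses come from the adjustment. It was 0.0762 for the Prkag ratio, and 0.0381 for all 3 without any single WT library. The adjusted p of 0.0381 with all libraries likewise came from 3 of the 4 ratios sharing the smallest p. Prkab1, Acaca and Acacb were also called singly, so the Prkab and Acac ratios are not separate evidence. The difference for Prkaa1 to Prkaa2, 0.02 with all libraries, was -0.0048 without both number 4 libraries and ran from -0.0404 to 0.10 with 1 left out, including -0.0137 without WT 1 and -0.0125 without TAZG197V 4. A pseudocount of 0.5 changed no ratio call. Genes near 0 changed sign. Cpt1a was 0.17 without both number 4 libraries and ran from -0.16 to 0.13 with 1 left out, Cpt1b from -0.0978 to 0.0531, and Ppargc1a was 0.0285 without both and ran from -0.206 to 0.0384. No cause of these shifts was tested.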
